A study of Mus musculus with 9 samples.

Results

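A set of 10 genes of glucose use was followed through the CD11b+ cells of mouse brains during and after CSF1R inhibition. They are 10 of the 31053 genes in the files, chosen by name: the glucose transporter gene Slc2a1, the hexokinases Hk1 and Hk2, the phosphofructokinase Pfkp, its regulator Pfkfb3, the enzymes Aldoa, Pgk1, Pkm and Ldha, and the transcription factor gene Hif1a. All mice were female, 5 months old and of the strain C57BL/6 in the labels (C57BL/6J in the study's methods). The 3 Ctrl libraries came from untreated mice, 1 brain each. The 3 D0 libraries came from mice fed PLX5622, a CSF1R inhibitor that kills most microglia, at 1200 mg/kg in the diet for 14 days. The 3 D2 libraries came from mice that then had 2 days of control diet. Each D0 or D2 library pooled 2 brains, so the library is the replicate. The brains, without cerebellum, were digested with warm enzymes, and live CD11b+ cells, a gate that takes in microglia, monocytes and neutrophils, were sorted and profiled with 10x 3′ reagents. The microglia of D0 are the cells present at the end of the 14 days of inhibitor.

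Glycolysis turns glucose into pyruvate in the cytosol. Slc2a1 (GLUT1) carries glucose across the plasma membrane, hexokinases trap it by phosphorylation, and phosphofructokinase commits it to the pathway under the control of fructose bisphosphate made by the Pfkfb3 enzyme. Aldolase (Aldoa), phosphoglycerate kinase (Pgk1) and pyruvate kinase (Pkm) follow, and lactate dehydrogenase A (Ldha) turns pyruvate into lactate. The Hif1a product is controlled mostly by breakdown of the protein, and it switches on many glycolytic genes when oxygen is low by binding the letters ACGTG or GCGTG. Neutrophils are known for their reliance on glycolysis, while resting microglia also respire.

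The DNA around the start sites is shown for the 5 members on which the comparisons turn most: Pgk1 and Pkm, which were called higher at D0, Hk2 and Pfkfb3, which were high in microglia, and Pfkp, which was nearly absent from them. Each window runs from 250 bases before to 50 after a RefSeq start (GRCm38.p6), written 5′ to 3′ on the strand of the gene. Capitals mark ACGTG or GCGTG on either strand, so that CACGT and CACGC are the same letters read from the other strand.
Pgk1 (chrX:106186850-106187149, plus strand): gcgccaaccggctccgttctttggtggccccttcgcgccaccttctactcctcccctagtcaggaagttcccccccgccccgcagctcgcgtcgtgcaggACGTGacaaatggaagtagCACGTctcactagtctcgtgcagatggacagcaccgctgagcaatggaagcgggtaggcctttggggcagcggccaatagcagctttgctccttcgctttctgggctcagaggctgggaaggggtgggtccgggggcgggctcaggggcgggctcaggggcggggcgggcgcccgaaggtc
Pkm (chr9:59656326-59656625, plus strand): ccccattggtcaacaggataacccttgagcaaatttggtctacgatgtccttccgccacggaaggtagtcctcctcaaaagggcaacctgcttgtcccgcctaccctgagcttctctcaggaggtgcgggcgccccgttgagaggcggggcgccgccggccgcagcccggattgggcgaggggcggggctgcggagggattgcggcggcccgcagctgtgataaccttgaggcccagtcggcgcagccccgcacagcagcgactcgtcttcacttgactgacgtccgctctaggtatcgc
Hk2 (chr6:82774405-82774704, minus strand): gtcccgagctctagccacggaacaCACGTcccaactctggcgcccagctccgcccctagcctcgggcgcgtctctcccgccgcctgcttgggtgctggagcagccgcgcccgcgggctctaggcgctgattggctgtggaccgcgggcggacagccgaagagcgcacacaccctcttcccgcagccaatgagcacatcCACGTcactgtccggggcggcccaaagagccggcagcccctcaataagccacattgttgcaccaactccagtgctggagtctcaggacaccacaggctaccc
Pfkfb3 (chr2:11553880-11554179, minus strand): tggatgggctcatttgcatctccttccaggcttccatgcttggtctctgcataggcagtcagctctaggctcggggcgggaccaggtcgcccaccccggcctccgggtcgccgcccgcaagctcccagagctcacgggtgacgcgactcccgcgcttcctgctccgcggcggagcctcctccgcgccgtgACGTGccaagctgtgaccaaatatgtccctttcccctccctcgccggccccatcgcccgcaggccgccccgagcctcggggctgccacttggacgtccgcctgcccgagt
Pfkp (chr13:6648722-6649021, minus strand): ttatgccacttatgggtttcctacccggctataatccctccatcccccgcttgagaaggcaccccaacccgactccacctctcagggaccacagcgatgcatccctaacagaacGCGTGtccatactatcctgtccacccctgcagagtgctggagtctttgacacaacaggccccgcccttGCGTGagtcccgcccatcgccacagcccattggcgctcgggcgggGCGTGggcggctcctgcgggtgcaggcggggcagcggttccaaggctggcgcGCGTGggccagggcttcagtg
ACGTG occurred in the windows of 6 of the 10 members (Slc2a1, Hk2, Pfkfb3, Pgk1, Ldha and Hif1a) and in 19.6% of 32817 windows of this length over all genes. The palindrome CACGTG, in which matches on both strands overlap, was in 7.15% of all windows and in those of Ldha, which held 2, and Hif1a, which held 1. GCGTG was in the windows of 3 members (Slc2a1, Pfkp and Ldha) and in 32.4% of all. Pfkp held 4 matches, all of them GCGTG, Pgk1 and Hk2 held 2 ACGTG matches each, and Pfkfb3 held 1. The windows of Pkm, Hk1 and Aldoa held none of these letters, and each of these genes has at least 1 other start in the same table. The matches describe letters, not binding.

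Cells with 500 to 20000 unique molecular identifiers (UMIs, 1 per captured transcript) were kept, 30463 of 36391 in 9 libraries. They were placed in classes by counts of marker genes that are not among the 10. The microglia rule used P2ry12, Tmem119, P2ry13 and Cx3cr1 among others, which the paper reports as lower under the inhibitor. Entry into the class can therefore depend on the condition. Cells of no class made up 5.47, 2.64 and 1.46% in Ctrl-1 to Ctrl-3 and 7.31, 3.43 and 6.98% in D0-1 to D0-3. In D2-1 and D2-2 they made up 9.61 and 9.88%. The part of this in the comparisons of conditions was not tested. The 8 libraries compared held 21247 other microglia (microglia that were not dividing), 2286 dividing microglia (at least 2 of 8 mitotic genes detected), 373 monocytes and 1122 neutrophils. Markers kept out of the class rules were then read. The 10 held-out microglia markers, such as Csf1r, Trem2 and C1qa, summed to 77958 ± 13298 CPM (UMIs per 1000000 UMIs of the class, SD, n = 8 libraries) in other microglia, to 5633 ± 959 in monocytes and to 2683 ± 1400 in neutrophils (n = 7 each). The 10 neutrophil markers reached 79091 ± 39999 CPM in neutrophils, 191 ± 50.4 in monocytes and 239 ± 47.8 in other microglia. The 10 monocyte markers did not separate monocytes (5278 ± 427 CPM) from neutrophils (5001 ± 769 CPM), which share several of them, but were low in other microglia (287 ± 23.5 CPM). The neutrophils of Ctrl-2 stood apart, with 10721 CPM of the held-out neutrophil markers where the other 6 libraries had 51251 to 117776. All 10 members were still called between neutrophils and microglia without Ctrl-2, or without any other single library.

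D2-3, which the study also left out, stood apart. Of its microglia 82.5% were dividing (506 of 613), against 14.1% and 19.4% in D2-1 and D2-2, and it held 441 monocytes. With cells of at least 2000 UMIs thinned to 2000, these shares were 55.4%, 10.4% and 11.9%. The upper UMI limit removed 37.3% of its barcodes, 1.44% in D2-1 and 4.35% in D2-2, and from 1.20% (D0-1) to 24.2% (D0-3) in the libraries compared. D2-3 enters no comparison here. Ctrl libraries had 5 to 11 dividing microglia, under the 20 cells asked of a class, and Ctrl-1 had 14 neutrophils and 5 monocytes, so it has no level for them. The libraries held 20257894 to 61230741 UMIs, and any pair of them shared 0 to 7 barcodes. The file headers name Cell Ranger 3.1.0 for Ctrl-2 and Ctrl-3 and 3.0.2 for Ctrl-1 and the D0 and D2 libraries compared, so the version moves with the condition except in Ctrl-1. UMIs of each class were summed per library and compared by the quasi-likelihood test of edgeR, p-values being adjusted over all genes tested (Benjamini-Hochberg) and called under 0.05. Levels are CPM of all UMIs, whereas fold changes (log2, with SE) use edgeR's TMM scaling, which discounts the few genes that take up much of a class. With total UMIs in place of TMM, the median log2 fold of all genes moved from -0.04 to -0.27 for D0 against Ctrl, from -0.01 to -0.14 for D2 against Ctrl, and from -0.29 to -1.08 for neutrophils against microglia.

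The cell types differed in the hexokinase and phosphofructokinase RNAs they carried, among others. Under TMM, 8 of the 10 genes were called higher in neutrophils than in microglia, and Hk2 and Pfkfb3 lower. In monocytes 5 were called higher and 4 lower. Such calls were common, since 76.3% of 7375 genes were called between neutrophils and microglia (32.5% higher and 43.8% lower) and 58.1% between monocytes and microglia (27% higher and 31% lower). These fits used the 7 libraries with both blood cell classes, with library as a term. They compare shares of UMIs, not amounts per cell. Over the 9 libraries the median cell held 3186 UMIs in neutrophils, 9195.5 in monocytes and 6656 in other microglia.

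**Figure D1:**
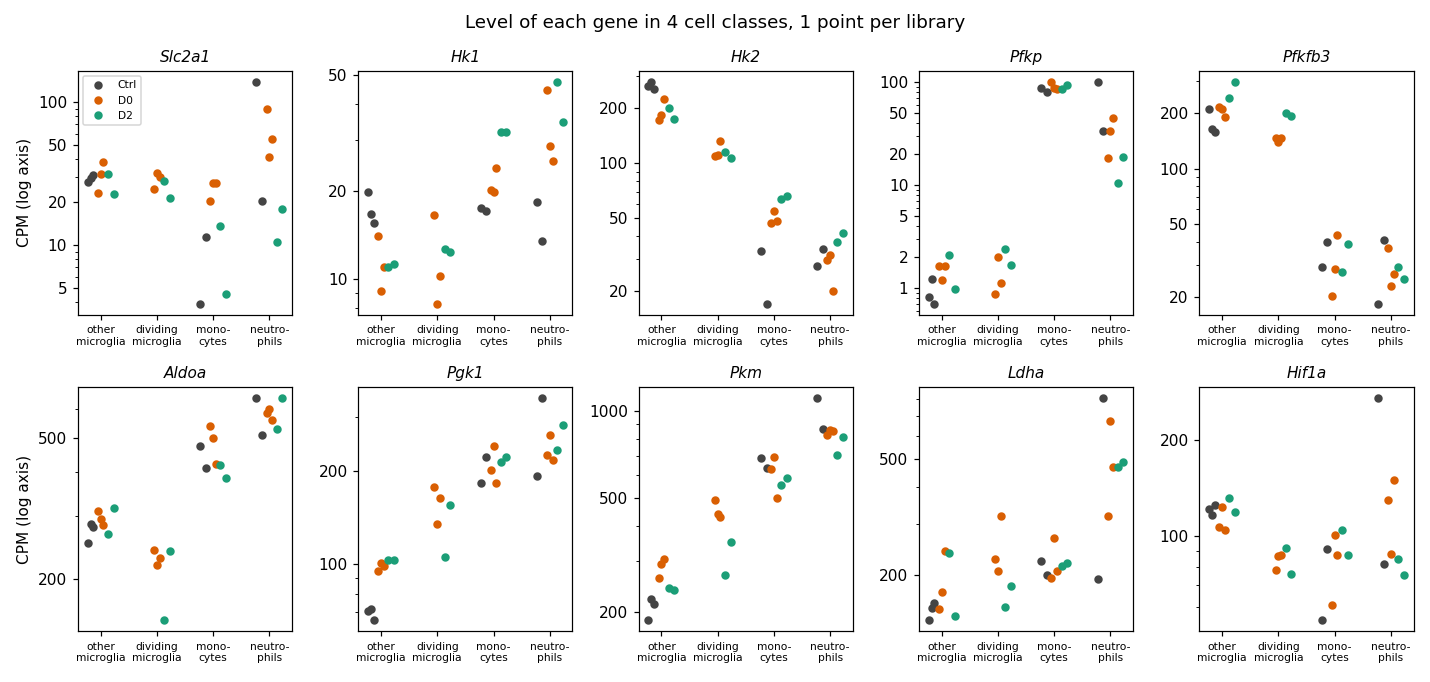
Level of each gene (CPM, log axis with its own range in each panel) in 4 cell classes, with 1 point per library coloured by condition and D2-3 left out. Pfkp lies between 0.707 and 2.12 CPM in other microglia and between 79.9 and 101 CPM in monocytes, while Hk2 and Pfkfb3 run the opposite way.

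Pfkp, the platelet-type phosphofructokinase, was found in both blood cell types and hardly in microglia. It ranged from 0.707 to 2.12 CPM in other microglia (median 1.22, 8 libraries), from 79.9 to 101 CPM in monocytes (median 87.5) and from 10.6 to 101 CPM in neutrophils (median 33.7). Neither blood cell class overlapped microglia. Among further classes, border macrophages were also low (0 and 5.13 CPM in 2 libraries). Dendritic cells held 67.9 to 158 CPM and mural cells 50.2 to 168 CPM, levels that were not tested. The fitted log2 fold against microglia was 6.03 (SE 0.30, edgeR adjusted p = 1.97e-13) in monocytes and 5.39 (SE 0.33, edgeR adjusted p = 1.97e-12) in neutrophils. Its mean in other microglia was 1.45% of that in monocytes, where the monocyte marker sum gave 5.44%. Whether that sum is stray RNA or the microglia's own was not tested. The 2 shares therefore do not tell whether microglia express Pfkp. Its UMIs in microglia number 9 to 35 per library and are not read as expression. The calls stand, but the sizes of these folds over microglia are not read.

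Hk2, the inducible hexokinase, was higher in microglia than in both blood cell types. It ranged from 173 to 278 CPM in other microglia (median 211), from 17.1 to 66.4 CPM in monocytes (median 48.1) and from 20.1 to 41.8 CPM in neutrophils (median 31.7). Both blood cell classes lay below every microglial library. The log2 fold against microglia was -2.14 (SE 0.20, edgeR adjusted p = 6.58e-09) in monocytes and -1.956 (SE 0.21, edgeR adjusted p = 1.95e-08) in neutrophils. Hk1, the hexokinase most cells carry, went the other way. Its level was 9.09 to 19.9 CPM in other microglia (median 12.7), 17.1 to 32.1 CPM in monocytes (median 20.2) and 13.6 to 47.5 CPM in neutrophils (median 28.7), so that levels overlapped between classes. In the TMM-scaled fit with library as a term, Hk1 was higher in neutrophils by 2.14 (log2, SE 0.23, edgeR adjusted p = 2.42e-08). In monocytes it was higher by 0.92 (log2, SE 0.25, edgeR adjusted p = 0.00349). Its level rests on 3 to 19 UMIs per library in monocytes and 2 to 85 in neutrophils, so the sizes of these folds are not read. In CPM the neutrophils of Ctrl-3 (13.6, from 2 UMIs) lay below its other microglia (15.6), while those of each other library lay above.

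Pfkfb3, which sets the pace of phosphofructokinase, followed Hk2. Other microglia had 159 to 296 CPM (median 211), monocytes 20.2 to 43.6 CPM (median 29.2) and neutrophils 18.4 to 40.7 CPM (median 26.8). The 2 blood cell classes overlapped each other and lay far below microglia, with a log2 fold of -2.64 in monocytes (SE 0.18, edgeR adjusted p = 2.37e-11) and -2.22 in neutrophils (SE 0.18, edgeR adjusted p = 1.95e-10). Dendritic cells held 36.0 to 99.1 CPM (5 libraries) and border macrophages 18.8 and 25.7 CPM (2 libraries), levels that were not tested.

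For 3 enzymes of the lower steps the level was lowest in microglia and highest in neutrophils by median. Pkm was at 188 to 306 CPM in other microglia (median 241), 498 to 691 CPM in monocytes (median 628) and 702 to 1110.4 CPM in neutrophils (median 853). No class overlapped the next. Its log2 fold was 1.27 in monocytes against microglia (SE 0.14, edgeR adjusted p = 7.69e-08), 2.47 in neutrophils against microglia (SE 0.14, edgeR adjusted p = 1.14e-12) and 1.20 in neutrophils against monocytes (SE 0.14, edgeR adjusted p = 2.56e-07). The 3′ counts do not tell the M1 and M2 forms of pyruvate kinase apart. Pgk1 had medians of 96.8, 214 and 235 CPM in other microglia, monocytes and neutrophils, and its log2 fold against microglia was 1.21 (SE 0.15) in monocytes and 2.18 (SE 0.15) in neutrophils. Aldoa had medians of 284, 421 and 587 CPM, with log2 folds of 0.63 (SE 0.13) and 1.73 (SE 0.14). These 4 folds were called, while the higher Pgk1 of neutrophils against monocytes (log2 0.97, SE 0.16) was not called with total UMIs (0.24, adjusted p = 0.13).

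Ldha was called higher in neutrophils than in both other types, but its neutrophil levels spread widely, and that of Ctrl-2 lay below every monocyte library and within the range of other microglia. It ranged from 194 to 807 CPM in neutrophils (median 470), the extremes being Ctrl-2 and Ctrl-3, from 196 to 268 CPM in monocytes (median 214) and from 140.5 to 241 CPM in other microglia (median 157). Neutrophils against microglia gave a log2 fold of 2.12 (SE 0.22, edgeR adjusted p = 1.72e-08). Monocytes against microglia gave 0.29 (SE 0.22, edgeR adjusted p = 0.264), which was not called.

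Slc2a1 and Hif1a gave class differences that depend on the scaling, on single libraries or on the class limits. Slc2a1 ranged from 22.8 to 38.2 CPM in other microglia (median 30.3), 3.89 to 27.3 CPM in monocytes (median 13.7) and 10.6 to 138 CPM in neutrophils (median 41.1). Under TMM it was higher in neutrophils than microglia by 1.33 (log2, SE 0.31, edgeR adjusted p = 0.000555), but with total UMIs the value was 0.58 (adjusted p = 0.117). In monocytes against microglia it was -0.93 (log2, SE 0.38, edgeR adjusted p = 0.0425), a call lost without Ctrl-2 (adjusted p = 0.0611), Ctrl-3 (0.0766), D0-3 (0.0514), D2-1 (0.0605) or D2-2 (0.111), with stricter marker limits (0.0909), and with no library term (0.103). Hif1a ranged from 105 to 132 CPM in other microglia (median 120.4), 54.4 to 105 CPM in monocytes (median 87.2) and 75.2 to 272 CPM in neutrophils (median 88.0), and the classes overlapped. Its log2 fold in neutrophils against microglia was 0.72 (SE 0.20, edgeR adjusted p = 0.00235) under TMM but -0.01 (adjusted p = 0.972) with total UMIs, where the direction turns. In monocytes against microglia it was -0.50 (log2, SE 0.21, edgeR adjusted p = 0.0442), a call lost when Ctrl-3 or any 1 of the D0 or D2 libraries was left out (adjusted p from 0.0514 to 0.105) and with stricter marker limits (-0.39, adjusted p = 0.183).

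Outside the CD11b+ types, other cells in the sort, among them 825 endothelial cells of the 8 libraries, show where Slc2a1 is usually read. Endothelial cells, whose GLUT1 carries glucose over the blood-brain barrier, held 1500.4 to 2750.0 CPM of Slc2a1 (median 2139, 8 libraries). The highest level in any library of other microglia was 38.2 CPM. Endothelial cells also held 4.67 to 22.0 CPM of Pfkfb3 and 0 to 13.6 CPM of Hk2, below every library of other microglia for both genes. These levels were not tested.

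Neutrophils against monocytes gave 7 of the 10 members higher under TMM, where 61.5% of all genes were called (28.3% higher and 33.2% lower). Slc2a1 had the largest log2 fold of the 7 at 2.26 (SE 0.41, edgeR adjusted p = 5.9e-05), followed by Ldha at 1.82 (SE 0.23), Hif1a at 1.22 (SE 0.22) and Hk1 at 1.21 (SE 0.27). The monocyte level of Slc2a1 rests on 2 to 26 UMIs per library and that of Hk1 on 3 to 19, so the sizes of their folds are not read. For Slc2a1 the neutrophils of D2-1 (10.6 CPM) lay below its monocytes (13.7 CPM), while those of each other library lay above. Pfkp at -0.64 (SE 0.29, edgeR adjusted p = 0.0601), Pfkfb3 at 0.42 (SE 0.22) and Hk2 at 0.18 (SE 0.24) were not called by edgeR under TMM. Pfkp was called lower with DESeq2 (adjusted p = 0.0235), upper-quartile scaling (0.0142), no upper UMI limit (0.0139), D2-3 included (0.041) or Ctrl-2 left out (0.0116). Pfkfb3 was called higher with stricter marker limits (1.22, adjusted p = 0.000986) and with D2-3 included (0.54, adjusted p = 0.0423). With total UMIs the count was 4 higher and 2 lower, and S100a8, S100a9 and Retnlg, the genes that chose the neutrophils, summed to 267241 ± 53700 CPM of them (n = 7). On that scale Hk1 (0.43), Pgk1 (0.24) and Hif1a (0.49) were no longer called, while Pfkp (-1.40, adjusted p = 0.000346) and Hk2 (-0.61, adjusted p = 0.0339) were called lower. For monocytes against microglia the split moved from 5 higher and 4 lower to 5 and 2 on that scale, and for neutrophils against microglia from 8 and 2 to 6 and 2. The shares of all genes called between classes on that scale are not given. These counts are therefore not read as results about the members.

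The other genes of the pathway gave a similar division. Of 17 other glycolysis genes, 11 were measured well enough to test between classes. In neutrophils 8 of them were higher than in microglia and 2 lower. Slc2a3, the neuronal and leukocyte transporter GLUT3, was at 242 ± 93.4 CPM in neutrophils, 2.98 ± 0.807 CPM in other microglia and 2.62 ± 4.07 CPM in monocytes (n = 7 each), a log2 fold of 7.05 against microglia (SE 0.24, edgeR adjusted p = 1.41e-16). Slc16a3, the lactate exporter MCT4, was at 805 ± 575 CPM against 41.8 ± 10.8 in microglia. Hk3, a further hexokinase, was higher in neutrophils than in microglia by 2.49 (log2, SE 0.16, edgeR adjusted p = 6.66e-12). In monocytes against microglia Hk3 was at -0.32 (log2, SE 0.20, edgeR adjusted p = 0.176), not called. Ldhb, the lactate dehydrogenase that favours lactate use, was at 16.3 ± 12.9 CPM in neutrophils, 44.9 ± 20.03 CPM in monocytes and 557 ± 109 CPM in other microglia. Pfkl, the liver-type phosphofructokinase, was at 20.3 ± 3.82 CPM in neutrophils, 39.9 ± 23.4 CPM in monocytes and 79.4 ± 10.6 CPM in other microglia. In monocytes 4 of the 11 were higher than in microglia, led by Gpi1 (409 CPM against 179.7) and Eno1, and 2 were lower, Ldhb and Pfkl.

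Pentose phosphate genes, which make NADPH from glucose, were higher in both blood cell types: 6 of 7 in neutrophils and 5 of 7 in monocytes, with none lower under TMM. Taldo1 was at 1650.2 ± 469 CPM in neutrophils and 989 ± 65.9 CPM in monocytes, against 232 ± 11.9 CPM in other microglia. Of 26 oxidative phosphorylation genes, 24 were higher in monocytes than in microglia and none lower (median log2 fold 0.60, against -0.08 for all genes), with Atp5l and Cox5b the largest. Neutrophils had 13 higher and 5 lower under TMM (median 0.31, against -0.29 for all genes), but 2 higher and 16 lower with total UMIs (median -0.46, against -1.08 for all genes), so no direction is read for this list. Of 20 pyruvate and TCA genes, 19 were tested, with 5 higher and 8 lower in neutrophils and 9 higher and 1 lower in monocytes. With total UMIs the neutrophil counts became 2 and 14 for the pyruvate and TCA genes, 5 and 1 for the pentose phosphate genes, and 7 and 6 for the HIF targets that follow. The share of all genes called on that scale is not given. Among 16 tested targets of HIF, 9 were higher and 4 lower in neutrophils, and 5 higher and 7 lower in monocytes. Ndrg1 and Vegfa led the higher ones in both types (log2 5.95 and 3.86 in neutrophils), and Pdk1 and P4ha1 the lower ones (log2 -3.88 and -3.48). Of 6 tested genes of the HIF pathway, 3 were lower in neutrophils (Vhl, Hif1an and Siah2), and in monocytes Siah2 was higher and Vhl and Hif1an lower.

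In other microglia, 2 of the 10 members were called higher at D0 than in Ctrl, Pgk1 and Pkm, and 2 at D2, Pgk1 and Pfkfb3, with none lower. Over all 12372 genes 8.52% were called at D0 (6.19% higher and 2.33% lower) and 10% at D2 (5.97% higher and 4.06% lower). Both comparisons use the same 3 Ctrl libraries. With total UMIs the members' counts became 2 higher and 2 lower at D0 and 2 higher and 1 lower at D2. At D0 the calls over all genes also rose on that scale, and at D2 their number is not given. The added calls are therefore not read as particular to the members. A lower level cannot be told apart from fewer cells with the RNA.

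**Figure D2:**
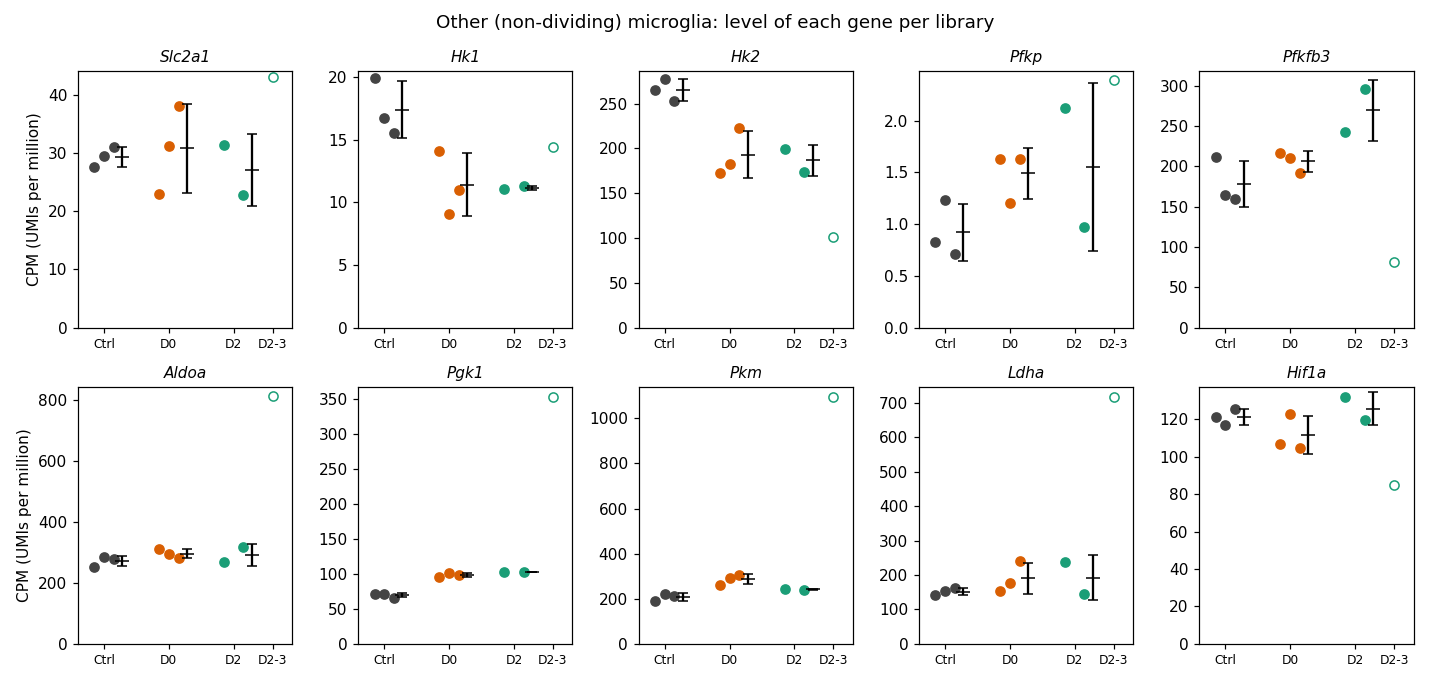
Level of each gene (CPM, axes from 0) in other microglia, with 1 filled point per library, a bar at the mean with the SD (n = 3, 3 and 2), and an open point for D2-3, which is not in the mean. Pgk1 rises from 65.8 to 71.5 CPM in Ctrl to 95.04 to 103 CPM in D0, D2-1 and D2-2, and D2-3 lies at 352 CPM.

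Pgk1, the first ATP-yielding step, was at 70.5, 71.5 and 65.8 CPM in Ctrl-1 to Ctrl-3, at 95.04, 101 and 98.6 CPM in D0-1 to D0-3, and at 103 and 103 CPM in D2-1 and D2-2. Every treated library lay above every Ctrl library, and the spread within groups was small. The log2 fold was 0.73 at D0 (SE 0.11, edgeR adjusted p = 0.00349) and 0.70 at D2 (SE 0.12, edgeR adjusted p = 0.00749). When a term for the Cell Ranger version was added, the D0 call held and the D2 value was 0.73 (adjusted p = 0.0532), which was not called.

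Pkm, which makes pyruvate, was at 188, 223 and 214 CPM in Ctrl, 262, 293 and 306 CPM in D0, and 243 and 239 CPM in D2. Ctrl did not overlap either group, and D2 lay between Ctrl and D0. The log2 fold at D0 was 0.69 (SE 0.13, edgeR adjusted p = 0.0127), with the call lost without Ctrl-3 (adjusted p = 0.0502) or D0-2 (0.0629). At D2 the value was 0.34 (SE 0.15, edgeR adjusted p = 0.184), not called.

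Pfkfb3 was at 211, 165 and 159 CPM in Ctrl, 216, 210.4 and 191 CPM in D0, and 243 and 296 CPM in D2. D0 overlapped Ctrl-1, and both D2 libraries lay above all others. The log2 fold at D2 was 0.73 (SE 0.15, edgeR adjusted p = 0.0159). This call was lost without Ctrl-2 (adjusted p = 0.0566), Ctrl-3 (0.0636) or D2-2 (0.119), and when a term for the Cell Ranger version was added (0.54, adjusted p = 0.164). At D0 Pfkfb3 was at 0.44 (SE 0.13, edgeR adjusted p = 0.0743), not called, but DESeq2 called it (adjusted p = 0.0229), as did edgeR without Ctrl-1 (0.0406).

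The other 7 members gave no call at either time by edgeR under TMM. At D0 Aldoa was called higher by DESeq2 (0.37, adjusted p = 0.0409) and with no upper UMI limit (0.49, adjusted p = 0.0428). Hk2 was at 265, 278 and 253 CPM in Ctrl, 173, 183 and 223 CPM in D0, and 199 and 174 CPM in D2. Its CPM in treated libraries lay below every Ctrl library, but its log2 fold under TMM was -0.23 (SE 0.13, edgeR adjusted p = 0.316) at D0 and -0.38 (SE 0.15, adjusted p = 0.144) at D2. With total UMIs both were called lower, at -0.46 (adjusted p = 0.0357) and -0.51 (adjusted p = 0.0479), and at D2 also with dividing microglia kept (-0.53, adjusted p = 0.0261). Hk1 was at 19.9, 16.7 and 15.6 CPM in Ctrl, 14.1, 9.09 and 11.0 CPM in D0, and 11.0 and 11.3 CPM in D2, also without overlap. Its log2 fold was -0.39 (SE 0.16, edgeR adjusted p = 0.162) at D0 and -0.51 (SE 0.18, adjusted p = 0.117) at D2, with a call at D0 under total UMIs (-0.62, adjusted p = 0.0452).

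Ldha spread within groups more than between them. It was at 140.5, 154 and 161 CPM in Ctrl, 153, 175 and 241 CPM in D0, and 238 and 145 CPM in D2, and the groups overlapped. The log2 fold was 0.55 (SE 0.22, edgeR adjusted p = 0.145) at D0 and 0.46 (SE 0.24, edgeR adjusted p = 0.265) at D2. Aldoa (253 to 285 CPM in Ctrl, 283 to 311 in D0, 267 and 317 in D2) gave 0.35 (SE 0.12, adjusted p = 0.11) and 0.22 (SE 0.14, adjusted p = 0.335). Slc2a1 (27.6 to 31.1 CPM in Ctrl, 23.04 to 38.2 in D0, 31.5 and 22.8 in D2) gave 0.30 (SE 0.20, adjusted p = 0.389) at D0 and 0.01 (SE 0.23, adjusted p = 0.984) at D2.

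Hif1a mRNA was nearly level across the conditions. Other microglia had 121, 117 and 125 CPM in Ctrl, 107, 123 and 105 CPM in D0, and 132 and 119 CPM in D2. The groups overlapped, and the log2 fold was 0.11 (SE 0.12, edgeR adjusted p = 0.601) at D0 and 0.18 (SE 0.13, edgeR adjusted p = 0.442) at D2. On total UMIs the D0 sign turned to -0.12 (adjusted p = 0.437). Pfkp stayed at the level not read as expression. Its log2 fold was 0.92 (SE 0.36, edgeR adjusted p = 0.15) at D0 and 0.93 (SE 0.41, edgeR adjusted p = 0.193) at D2, neither of them called.

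Between D2 and D0 none of the 10 was called (edgeR adjusted p from 0.753 to 0.994, 1 at an unadjusted p under 0.05, and 0 called by DESeq2), and none of the 12372 genes was either (0%, with 730 at an unadjusted p under 0.05 and 18 called by DESeq2). The log2 folds of the 10 lay between -0.36 and 0.28.

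Among related genes in other microglia, those of the respiratory chain were called most often. Of 26 oxidative phosphorylation genes, 15 were higher at D0 and 8 at D2, with none lower (median log2 fold 0.53 and 0.35, against -0.04 and -0.01 for all genes). With total UMIs these counts were 9 and 4, again with none lower (median 0.30 and 0.23, against -0.27 and -0.14). Uqcrh was at 496 CPM at D0 and 531 CPM at D2 against 325 in Ctrl, and Ndufa1 at 136 CPM against 80.9 at D0. Of 17 other glycolysis genes, Gpi1 and Gapdh were higher at D0, and at D2 Gpi1 was higher and Ldhb and Bpgm lower. Gpi1, which follows hexokinase, was at 204 ± 13.7 CPM at D0 and 132 ± 13.6 CPM in Ctrl (n = 3 each), a log2 fold of 0.86 (SE 0.14, edgeR adjusted p = 0.00663). Gapdh was at 931 CPM against 664. Ldhb was at 429 CPM at D2 against 672 in Ctrl (log2 -0.52, SE 0.14, edgeR adjusted p = 0.0481). In the pentose phosphate list Tkt and Pgls were higher at D0 and none was called at D2, and of the pyruvate and TCA genes only Idh3b was called, at D0.

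Of all genes, 8.52% were called at D0 and 10% at D2, and the HIF lists are too short for their counts to be read against these shares. Of 20 HIF targets, 3 were higher at D0 (Mif, Fam162a and Bhlhe40) and at D2 Mif and Bhlhe40 were higher and Pdk1 lower. Mif, a cytokine gene, was at 213 CPM at D0 and 201 CPM at D2 against 133 in Ctrl. In the HIF pathway list 1 of 8 tested genes was called, Egln3, which encodes a hydroxylase that marks HIF-1α for breakdown, with a log2 fold of 1.81 (SE 0.30, edgeR adjusted p = 0.00721) at D0 and 2.29 (SE 0.33, adjusted p = 0.0039) at D2. Egln3, Bhlhe40 and Bpgm were under the 20 CPM asked of a named gene and were picked out after their values were seen.

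Signs of cell state moved beside these values. The held-out microglia markers summed to 86874 to 95835 CPM in the Ctrl libraries of other microglia, 70678 to 74280 CPM at D0 and 58240 to 69358 CPM at D2. The sum of 12 immediate early and stress genes, which rise during warm digestion, was 8737 to 13405 CPM in Ctrl, 8326 to 13874 CPM at D0 and 8750.1 to 10085 CPM at D2, and of these genes Ier2 and Fos were called higher at D0 and Ier2 at D2. The held-out monocyte markers summed to 251 to 325 CPM and the held-out neutrophil markers to 153 to 319 CPM in these libraries. The monocyte sums of D2-1 and D2-2 (251 and 262 CPM) lay below those of the other libraries, and the neutrophil sums overlapped between groups. Gene by gene, 5 of 9 tested neutrophil markers were called higher at D0 and 4 at D2, as were 4 and 3 of 8 held-out mitotic genes, although their sum was at most 31.7 CPM. The S phase genes Rrm2 and Tk1 were called higher at D0. The part of these in the results on the 10 genes was not tested.

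Dividing microglia of the same libraries differed from other microglia in 6 of the 10 members, with Pgk1 and Pkm higher and Hk2, Pfkfb3, Hif1a and Aldoa lower. Calls were again common, at 44% of 11235 genes (21.9% higher and 22.1% lower). The fit used D0-1, D0-2, D0-3, D2-1 and D2-2, in that order below, with library as a term.

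**Figure D3:**
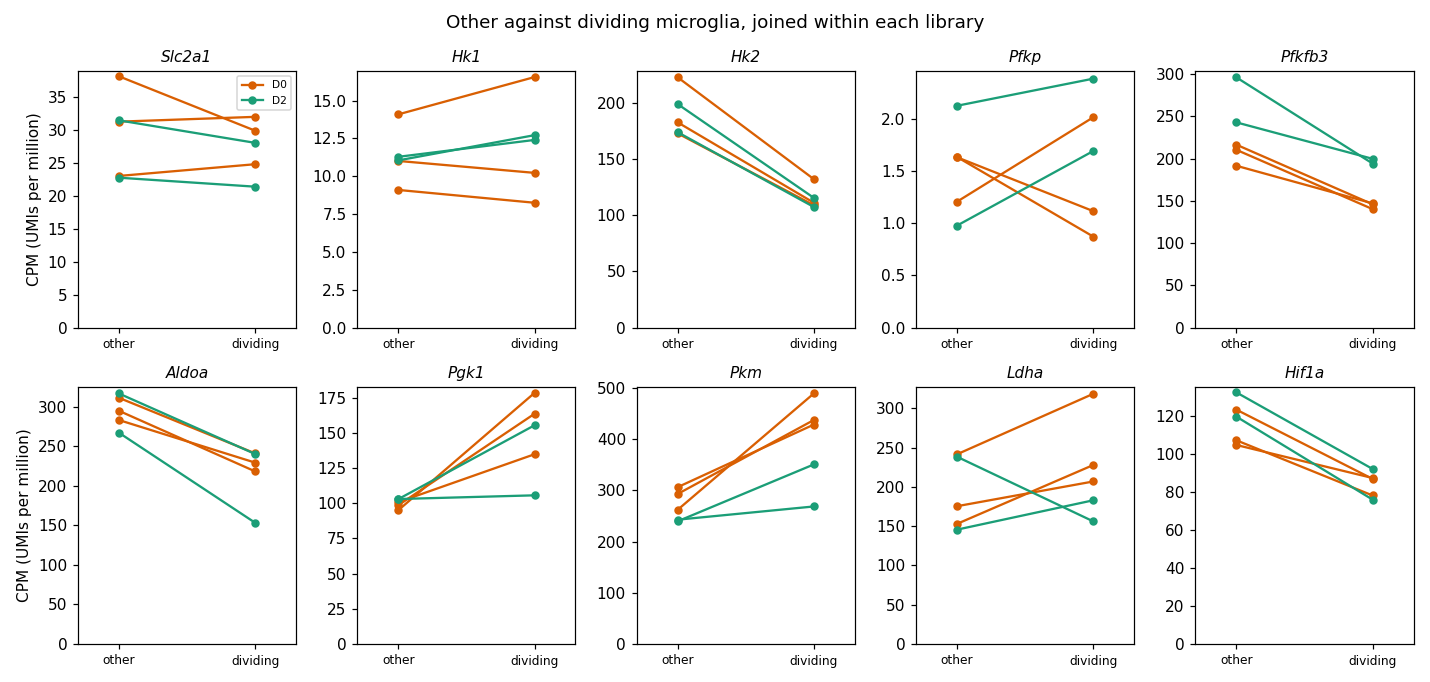
Level of each gene (CPM, axes from 0) in other and dividing microglia, with 1 line per library for the 3 D0 and 2 D2 libraries. Pgk1 rises and Hk2, Hif1a and Aldoa fall in all 5 libraries.

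Pgk1 was at 95.04, 101, 98.6, 103 and 103 CPM in other microglia and at 179, 135, 164, 106 and 156 CPM in dividing microglia. It was higher in the dividing cells of 5 of 5 libraries, least in D2-1, with a log2 fold of 0.55 (SE 0.11, edgeR adjusted p = 0.00194). Pkm was at 262, 293, 306, 243 and 239 CPM in other and 489.6, 438, 429, 269 and 351 CPM in dividing microglia. It too was higher in 5 of 5 libraries (log2 fold 0.54, SE 0.09, edgeR adjusted p = 0.000876).

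Hk2 was at 173, 183, 223, 199 and 174 CPM in other and 109, 111, 132, 115 and 107 CPM in dividing microglia. The 2 sets did not overlap, and the log2 fold was -0.72 (SE 0.07, edgeR adjusted p = 9.08e-06). Pfkfb3 was at 216, 210.4, 191, 243 and 296 CPM in other and 146, 140.2, 147, 199.7 and 194 CPM in dividing microglia. It was lower in each library, and the D2 libraries were the highest in both classes, with a log2 fold of -0.48 (SE 0.08, edgeR adjusted p = 0.00043).

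Hif1a was at 107, 123, 105, 132 and 119 CPM in other and 78.0, 86.7, 87.2, 91.9 and 75.8 CPM in dividing microglia. The 2 sets did not overlap (log2 fold -0.47, SE 0.07, edgeR adjusted p = 0.00035). Aldoa was at 311, 295, 283, 267 and 317 CPM in other and 241, 218, 229, 153 and 240.0 CPM in dividing microglia (log2 fold -0.45, SE 0.08, edgeR adjusted p = 0.000812). Its call was lost when cells above 20000 UMIs were kept (-0.23, adjusted p = 0.0677).

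Ldha was at 153, 175, 241, 238 and 145 CPM in other and 228, 207, 319, 156 and 183 CPM in dividing microglia. It was higher in 4 of 5 libraries and lower in D2-1, so the log2 fold of 0.20 (SE 0.14, edgeR adjusted p = 0.264) was not called. Without D2-1 it was 0.39 (adjusted p = 0.00114). Slc2a1 at -0.10 (SE 0.10, edgeR adjusted p = 0.428) and Hk1 at 0.05 (SE 0.12, adjusted p = 0.887) were not called, and both classes were low in Pfkp.

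Other genes of the pathway were divided in the same comparison. Of 16 other glycolysis genes tested, 3 were higher (Gapdh, Eno1 and Pgam1) and 3 lower (Pfkl, Pfkfb4 and Aldoc). Gapdh was at 1567 CPM in dividing and 911 CPM in other microglia (log2 fold 0.78, SE 0.09, edgeR adjusted p = 5.23e-05), and Pfkl at 56.8 ± 9.72 against 78.6 ± 12.4 CPM (n = 5 each). Oxidative phosphorylation genes were higher in 24 of 26 and lower in none (median log2 fold 0.43, against -0.04 for all genes), led by Ndufa4 and Atp5j. Pyruvate and TCA genes were higher in 10 of 20, with Fh1 and Mdh1 largest, and 1 was lower, Pdk2. Tkt and Taldo1 of the pentose phosphate list were higher. HIF targets were split, with 6 higher and 7 lower of 19 tested. Among those of at least 20 CPM, Bnip3 (16.1 against 28.2 CPM) and P4ha1 (124 against 199 CPM) had the largest falls, and Cited2 and Fam162a the largest rises. All 12 S phase genes were higher, and 8 of 12 immediate early and stress genes were lower, with Hspa1b at 196 CPM in dividing and 414 CPM in other microglia. The held-out microglia markers summed to 48279 to 54337 CPM in dividing microglia, and 5 of 10 were called lower. The part of these and of the stress genes in the lower members was not tested. Dividing cells were deeper, with a median of 11605 UMIs against 6656 over the 9 libraries. For an alternative, cells of at least 2000 UMIs were thinned to 2000, the others were dropped, and dividing was decided again on the thinned counts. Each of the 6 calls kept its direction and its call. The dividing share of microglia was then 5.48, 12.3, 11.8, 10.4 and 11.9% in D0-1, D0-2, D0-3, D2-1 and D2-2. Before thinning it was 6.08, 21.7, 22, 14.1 and 19.4%, so the 2 fits do not compare the same sets of cells.

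The effect of dividing did not differ in a called way between D2 and D0 for any of the 10 (edgeR interaction, adjusted p from 0.851 to 1, 0 at an unadjusted p under 0.05), nor for any of 11791 genes (0%, 637 at an unadjusted p under 0.05). In neutrophils, D0 against Ctrl called none of the 10 (edgeR adjusted p from 0.783 to 0.995, 1 at an unadjusted p under 0.05) and none of 3893 genes (0%, 237 at an unadjusted p under 0.05). Only 2 Ctrl libraries had enough neutrophils, 68 and 25 cells, and they differed widely. Ctrl-2 and Ctrl-3 had 138 and 20.4 CPM of Slc2a1, 272 and 81.4 CPM of Hif1a, 101 and 33.9 CPM of Pfkp, and 194 and 807 CPM of Ldha. The 3 D0 libraries lay within those 2 values for Slc2a1, Hif1a and Ldha. The D0 effect in neutrophils minus that in microglia was called for none of the 10 (edgeR adjusted p from 0.862 to 1, 1 at an unadjusted p under 0.05) and for 0.707% of 11735 genes (0.0937% higher and 0.614% lower).

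**Figure D4:**
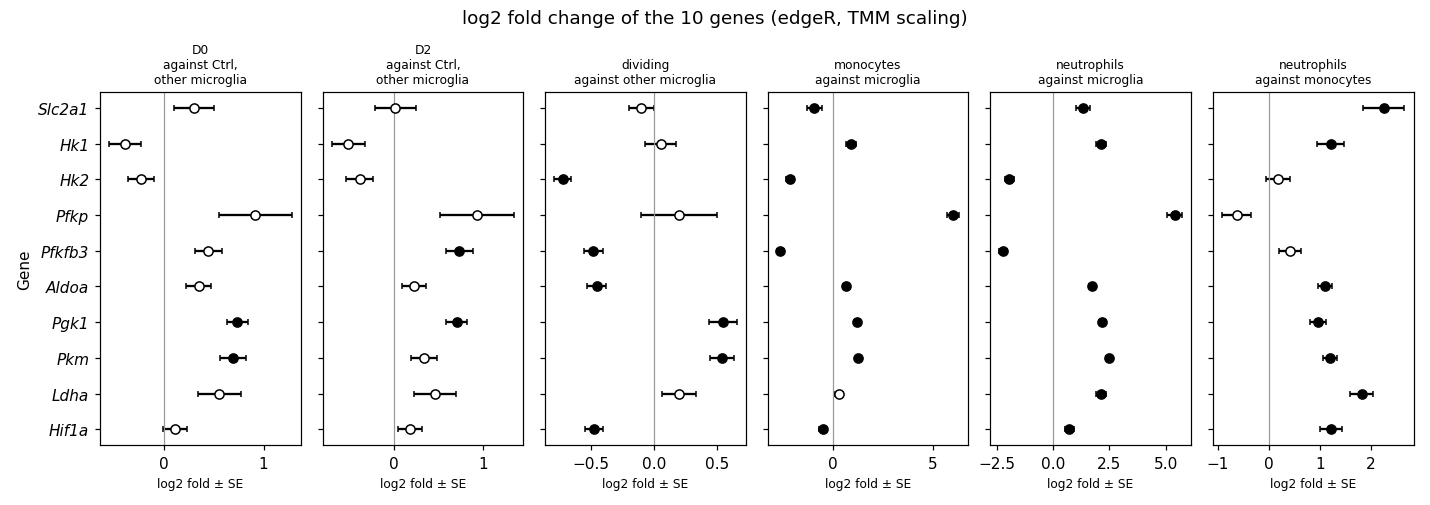
Log2 fold change (horizontal axis, own range in each panel) of the 10 genes in 6 comparisons, with bars of 1 SE and filled points for genes called at an adjusted p under 0.05 in edgeR. Pgk1 is called higher in all 6, and Hk2 and Pfkfb3 are called lower in dividing microglia, monocytes and neutrophils against other microglia.

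The genes whose levels ran most like each member over the 22 sums of other microglia, monocytes and neutrophils were found by Pearson's r of log2 CPM. Such values follow mainly from the 3 classes and are given as a description. Hk2 was most like Gpr155 (r = 0.976) and Nav2 (0.971), Pfkfb3 like Pdgfa (0.983) and Tbc1d16 (0.981), and Pfkp like Metrnl (0.966) and Klra2 (0.966). Pgk1 was nearest to Myl6 (0.983) and Aldh2 (0.975), Pkm to Arpc3 (0.98) and Clec4e (0.978), Aldoa to Gm34084 (0.964) and Gsn (0.964), and Ldha to Abhd5 (0.935) and Mgst2 (0.919). The likeness was weaker for Hk1 (Stk26, 0.882, and Rab2a, 0.854), Hif1a (Smox, 0.857, and Ddit3, 0.827) and Slc2a1 (Ptafr, 0.814, and Nfkbia, 0.794).

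In the mouse genome (GRCm38, GENCODE annotation) the 10 protein-coding genes lie apart from each other except that Ldha and Aldoa share chromosome 7: Slc2a1 at chr4:119108711-119137983, Hk1 at chr10:62268855-62379908, Hk2 at chr6:82725025-82774454, Pfkp at chr13:6579768-6648777, Pfkfb3 at chr2:11471433-11554077, Aldoa at chr7:126795234-126800751, Pgk1 at chrX:106187100-106203699, Pkm at chr9:59656368-59679375, Ldha at chr7:46841475-46855627 and Hif1a at chr12:73901375-73947530. The counts fall on the 3′ ends of their transcripts, and Pgk1 and Ldha have near-identical copies elsewhere in the genome, so that their counts are uncertain where the counting dropped or shared such reads.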

How the data were processed

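Live CD11b+ brain cells were profiled in 9 libraries. The authors deposited raw UMI counts per gene and cell barcode, made with Cell Ranger on mm10 per the labels, which name version 3.1.0, while file headers name 3.0.2 for 6 libraries. The filter on cells asked for 500 to 20000 UMIs, 200 or more genes, and a mitochondrial share of no more than 10%. Classes were set by marker UMIs per 10000, with limits chosen after marker counts were seen. No doublet caller was run, and 360 cells of several classes and 1630 of none (8 libraries) were left out. Over all 9 libraries, D2-3 included, 27 of 1415 neutrophils, 94 of 814 monocytes and 365 microglia lay within 1.5 times of a limit. Counts were summed per library and class (at least 20 cells) and tested with edgeR 4.0.16 (TMM, filterByExpr, quasi-likelihood, Benjamini-Hochberg) in R 4.3.3, after a trial on simulated counts. Deviations from the group means correlated at 0.393, 0.223 and 0.177 between same-numbered Ctrl and D0 libraries, so a block for these numbers was tried as an alternative. The main fits between conditions took no pairs. Ctrl-3 was closest to D0-2 (0.199), and D0-3 and D2-1, of unlike numbers, correlated at 0.393. D0-3 and D2-2 gave -0.393, since D2-1 and D2-2 deviate from their shared mean in mirror image. A pairing read from such correlations comes from these values, not the labels. The tests between conditions set a difference against the spread between libraries. Where library was a term, they set it against how the class difference varied between libraries. Alternatives were DESeq2 1.42.0, other scaling, filters, class limits, thinning, blocks, Cell Ranger version and libraries left out. Aldoa is counted under its main identifier, since a second one held 13 UMIs against 136719.

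The 10 members and the gene lists were chosen with earlier results of these data known. All members are named in each comparison. From each list up to 2 called genes in each direction were picked, those with the largest fold among genes of at least 20 CPM. Some further called genes are named beside them, a few of them under 20 CPM. Intervals are not given for single counts, and SEs cover library spread.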

Additional observations from a re-analysis of the deposited data

Results flagged for a closer look

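D2-3, left out of every comparison, held 107 other microglia in which 6 of the 10 genes lay above the highest Ctrl library. The share of all genes that lay outside the Ctrl range was not taken. This count is therefore not read as particular to the 10. Aldoa was at 815 CPM, Pgk1 at 352 CPM, Pkm at 1094 CPM and Ldha at 716 CPM, which is 2.86, 4.93, 4.91 and 4.45 times the highest Ctrl level. Slc2a1 was at 43.1 CPM and Pfkp at 2.40 CPM, the latter from 2 UMIs. Hk2 (100.6 CPM), Pfkfb3 (81.5 CPM), Hif1a (85.0 CPM) and Hk1 (14.4 CPM) lay below the lowest Ctrl library. The dividing microglia of D2-3 were high in the same 4 enzymes, with Aldoa at 865 CPM, Pgk1 at 414 CPM, Pkm at 1162 CPM and Ldha at 839.8 CPM. In its other microglia the held-out microglia markers summed to 24552 CPM, against 58240 to 95835 CPM in the other libraries, the held-out monocyte markers to 438 CPM against 251 to 325, and the immediate early and stress genes to 4502 CPM. The part of these in the levels was not tested, and 1 library gives no test.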

How the results depend on the processing

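Of 60 results on single genes, 34 kept direction and call in every alternative. For D0 against Ctrl in other microglia, 2 members were called, 4 with DESeq2 (Pfkfb3 and Aldoa added), 4 with total UMIs as library size (an alternative added after seeing the data), 0 with D2-3 included, and 1 to 3 with 1 library left out. For D2 against Ctrl, 2 were called, 0 with D2-3, 0 with a term for the Cell Ranger version, and 1 to 2 with 1 library left out. The dividing effect in D2 against D0 gave 0 to 1 with 1 library left out. The cause was not tested.

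Directions turned for values that were not called, except Hif1a in neutrophils against microglia, which was called under TMM. With total UMIs these were Hif1a at D0 (-0.12), Slc2a1 at D2 (-0.11), Hif1a in neutrophils against microglia (-0.00882), and Hk2 (-0.61, there called lower) and Pfkfb3 (-0.36) in neutrophils against monocytes. Slc2a1 at D2 was also -0.0183 with no filter on low counts, -0.031 with dividing microglia kept, and -0.18 to 0.20 with 1 library left out. Hk2 in neutrophils against monocytes was -0.0366 with upper-quartile scaling and -0.23 with cells thinned to 2000 UMIs. In dividing against other microglia, Hk1 was -0.00952 with upper-quartile scaling, Pfkp -0.0575 to 0.38 with 1 library left out, Slc2a1 0.0168 with no upper UMI limit and 0.14 thinned, and Ldha -0.0265 thinned.

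Over all genes, the 1054 calls at D0 became 1670 with DESeq2, 2383 with total UMIs, 2392 with dividing microglia kept, 320 with the Cell Ranger version, 264 with D2-3, and 520, 411 and 403 without Ctrl-2, Ctrl-3 or D0-2. The 1241 at D2 became 2192 with dividing microglia kept, 310 with the version, 732 with D2-3, and 598, 553, 764 and 477 without Ctrl-2, Ctrl-3, D2-1 or D2-2. Thinning left 2815, 2009, 2214 and 2893 calls of 5628 (neutrophils against microglia), 4283 (monocytes against microglia), 4537 (neutrophils against monocytes) and 4947 (dividing), with fewer genes tested, and no filter gave 8745 in the first. Dividing gave 3152 with no library term. A replicate block changed no member's call, with 2 members at D0 and 2 at D2 (1287 and 1113 genes). For D2 the same-numbered values were 0.0495 and 0.122 with Ctrl and -0.216 and 0.216 with D0. The 2 D2 libraries deviate from their mean in mirror image, so these values cannot show whether the numbers pair them. In other microglia Pfkp and Hk1 rest on the fewest UMIs.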
